A study of Mus musculus with 16 samples.

Results

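Smooth muscle genes were followed in the RNA of sorted EpCAM+ cells from the colon of 16 mice. The set was chosen by name and held 9 genes of the contractile apparatus. Values were found for 8 of them among the 22396 gene symbols of the tables, namely *Acta2*, *Actg2*, *Tagln*, *Cnn1*, *Mylk*, *Smtn*, *Lmod1* and *Des*, and the remaining 1 was not analysed here.

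EpCAM is a surface protein of epithelial cells, and dextran sulfate sodium (DSS), given to drink, damages the lining of the colon. The DSS-treated mice were 3 controls (Tnfr2-f/f) and 4 mice labelled knockout (Vil1::Cre;Tnfr2-f/f), and the water-treated mice were 4 controls and 5 mice labelled knockout, with the same 2 genotypes. By the labels DSS treatment was at 3% and lasted 6 days, with dissection on d 12 for water-treated mice too, and the mice were 8 weeks old by the methods. The methods differ from the labels in a slightly higher concentration and in placing the uninjured mice at the start of the time course. All 16 mice, controls included, carried *Tnfrsf1b*, the gene of TNFR2, with loxP sites around exon 2, and the villin promoter limits Cre to the intestinal epithelium, so that smooth muscle and other stromal cells kept the gene. The mucosa was lifted off the muscle layer with forceps before the cells were sorted, and after DSS the injured regions were taken. The 7 DSS-treated mice were females from 2 cages, one of 2 mice and one of 5, and the water-treated mice were 4 males of one cage and 5 females of another, so that sex and cage cannot be told apart there. No cage held mice of both treatments.

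Smooth muscle cells shorten when myosin pulls on actin filaments. Calcium starts this through myosin light chain kinase, and other proteins bind the filaments, regulate them and tie them to an intermediate filament network. In the colon the contractile cells form the outer muscle layers and the muscularis mucosae, and they surround arterioles. *Acta2* and *Tagln* are also made by myofibroblasts and pericytes. Serum response factor (SRF), with its partner myocardin or the related MRTF proteins, activates many contractile genes by binding the CArG box, a short element rich in A and T. Epithelial cells are built on the cytoplasmic actins *Actb* and *Actg1*.

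By the GENCODE annotation of the GRCm38 build the 8 genes lie apart. *Acta2* is on chromosome 19 (34241090 to 34255590, minus strand), *Actg2* on chromosome 6 (83512905 to 83536265, minus strand), *Smtn* on chromosome 11 (3517523 to 3540612, minus strand) and *Mylk* on chromosome 16 (34745210 to 35002420, plus strand). *Tagln* (45929619 to 45936058, minus strand) and *Cnn1* (22099216 to 22109630, plus strand) are both on chromosome 9, and *Des* (75360329 to 75368579, plus strand) and *Lmod1* (135324807 to 135368065, plus strand) are both on chromosome 1.

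Promoter sequence was found for 6 of the 8 genes in RefSeq (GRCm38.p6), as a window from 250 bases before to 50 bases after the start. The CArG box was searched on both strands, which its symmetric form makes a single search. An exact box was in none of the 6 windows, and it was in 1.63% of all 32851 windows. A box with 1 mismatch allowed was in 2 of the 6 windows, those of *Acta2* and *Lmod1*, against 21.1% of all windows, which include the exact ones. *Myl9*, the regulatory light chain of smooth muscle myosin, held an exact box, and its level followed the members most closely among the listed genes, for which it was chosen after its values were seen. Exact boxes were also in the windows of *Dmd*, *Fhl1*, *Ldb3*, *Myl6* and *Vcl* among the wider contractile genes (7 of 40 windows in all), of *Srf*, and of the actins *Acta1*, *Actc1* and *Actg1*. For those of these genes that averaged 1 TPM or more, the r with *Acta2* is given as a description. Across the 7 DSS-treated mice it was 0.81 for *Fhl1*, 0.21 for *Vcl*, −0.28 for *Srf*, −0.29 for *Acta1*, −0.43 for *Actg1* and −0.55 for *Myl6*. Across the 9 water-treated mice it was 0.51, 0.39, 0.82, 0.55, 0.59 and 0.61 in the same order. The 250 bases before the start of *Acta2*, *Lmod1* and *Myl9* are printed to show where the boxes lie. They run 5′ to 3′ on the strand of the gene, with the boxes in capitals. They are chr19:34255374-34255623 (minus strand) for *Acta2*, chr1:135324563-135324812 (plus strand) for *Lmod1* and chr2:156775214-156775463 (plus strand) for *Myl9*. The starts are those of RefSeq: that of *Acta2* lies inside the GENCODE gene given above, so that most of its 250 bases overlap the gene, and the last few bases of the *Lmod1* stretch do as well.
Acta2: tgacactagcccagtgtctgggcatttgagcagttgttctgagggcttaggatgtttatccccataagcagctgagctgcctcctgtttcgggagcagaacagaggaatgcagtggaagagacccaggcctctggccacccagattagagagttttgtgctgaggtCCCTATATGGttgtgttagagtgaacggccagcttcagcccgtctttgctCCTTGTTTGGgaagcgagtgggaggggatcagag
Lmod1: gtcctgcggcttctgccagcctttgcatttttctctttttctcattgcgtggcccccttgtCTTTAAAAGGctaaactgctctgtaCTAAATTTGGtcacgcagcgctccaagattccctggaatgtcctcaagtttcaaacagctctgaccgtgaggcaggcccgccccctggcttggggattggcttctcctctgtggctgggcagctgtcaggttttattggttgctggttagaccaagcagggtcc
Myl9: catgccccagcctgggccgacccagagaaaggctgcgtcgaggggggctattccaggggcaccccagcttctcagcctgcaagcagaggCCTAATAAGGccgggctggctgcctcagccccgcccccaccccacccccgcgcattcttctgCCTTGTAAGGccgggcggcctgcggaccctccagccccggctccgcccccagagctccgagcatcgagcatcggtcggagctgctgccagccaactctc
The boxes of *Acta2* began 84 and 34 bases before its start and those of *Lmod1* 189 and 164 bases before, each with 1 mismatch. In *Myl9* the exact box began 161 bases before the start and a box with 1 mismatch 99 bases before. A match is a description of the letters only. *Mylk*, *Smtn*, *Cnn1* and *Des* had no box within 1 mismatch in this window.

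The libraries carried epithelial RNA above all. *Epcam* was at 894 to 1017 TPM after DSS and at 566 to 712 TPM in water, and the 10 epithelial markers summed to between 6118 and 10429 TPM per mouse. The 8 smooth muscle genes summed to between 15.4 and 65.2 TPM per mouse. TPM is an abundance scaled by transcript length, so that levels can be set side by side between genes. Markers of other cells were present as well: 12 fibroblast markers summed to 131 to 971 TPM, 8 pericyte markers to 5.77 to 36.2 TPM and 8 endothelial markers to 5.57 to 23.6 TPM. The 10 leukocyte markers summed to 29.2 to 64.8 TPM after DSS and to 1154 to 2147 TPM in water. Defining markers of enteric glia and neurons were near 0, with sums of 0.173 to 3.08 TPM over 8 genes, and of the 8 skeletal and heart muscle genes *Myh1*, *Myh2* and *Myh6* were listed at 0 in all 16 mice. Of the same list, however, *Acta1*, skeletal muscle actin, was at 17.1 to 55.6 TPM after DSS and at 32.6 to 161 TPM in water, with a mean above that of *Acta2*, and *Tnnt2*, cardiac troponin T, reached 5.48 TPM, while *Ckm*, *Actc1* and *Tnnt3* reached at most 1.07 TPM. The part of these genes in the members' values was not tested. In such bulk samples, fewer cells of a type and less RNA per cell cannot be told apart. *Tnfrsf1b* itself was at 22.2, 13.9 and 13.3 TPM in the DSS-treated controls and at 27.0, 13.5, 15.2 and 17.7 TPM in the DSS-treated knockout mice, and it spanned 11.1 to 15.5 TPM in the water-treated controls and 9.23 to 14.8 TPM in the water-treated knockout mice. These values cover whole transcripts, of which only exon 2 is removed, so that they do not check the labels.

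*Acta2*, the alpha actin of smooth muscle, was the highest of the 8 genes in both treatments. It stood at 17.6, 8.50 and 8.92 TPM in the 3 DSS-treated controls and at 5.96, 15.98, 18.5 and 4.68 TPM in the 4 DSS-treated knockout mice. With water its values were 19.8, 27.2, 17.0 and 19.7 TPM for controls, and those of knockout mice were 25.6, 14.3, 22.4, 18.4 and 25.5 TPM. Control 1 and knockout 2 and 3 were high after DSS, the other 4 mice were low, and the genotypes overlapped in both treatments. The cytoplasmic actins were far above it, with *Actb* at 982 to 1490 TPM and *Actg1* at 1869 to 2773 TPM over the 16 mice.

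*Actg2*, the gamma actin of visceral smooth muscle, is the actin of the intestinal muscle wall. It reached 4.43, 3.38 and 2.08 TPM in the DSS-treated controls and 0.673, 1.31, 3.15 and 2.30 TPM in the DSS-treated knockout mice. With water its values were 2.66, 4.86, 4.90 and 4.14 TPM for controls, and those of knockout mice were 7.26, 1.83, 5.14, 1.46 and 6.31 TPM. The genotypes overlapped, and the knockout mice in water held both the highest and the lowest values of that treatment. *Acta2* was above *Actg2* in all 16 libraries: the ratio of *Actg2* to *Acta2* ran from 0.0822 to 0.491 after DSS and from 0.0796 to 0.288 in water. The tables list 2 transcripts of *Actg2*, which share a run of 1240 bases and differ near the 5′ end. In 15 of the 16 mice the estimate went almost wholly to 1 of the 2, which was ENSMUST00000121731 in 6 of 7 DSS-treated and 6 of 9 water-treated mice, and in the remaining mouse, knockout 5 in water, 94.1% went to the other. Only their sum is used here.

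*Tagln*, transgelin, and *Cnn1*, calponin, bind actin filaments and belong to one family. *Tagln* stood at 13.5, 7.12 and 6.08 TPM in the DSS-treated controls and at 4.53, 11.6, 13.2 and 3.80 TPM in the DSS-treated knockout mice. With water its values were 15.3, 17.2, 13.4 and 9.75 TPM for controls, and those of knockout mice were 17.96, 8.84, 17.5, 11.8 and 19.5 TPM. The mice high in *Acta2* after DSS were the 3 highest in *Tagln* too. The ratio of *Tagln* to *Acta2* ran from 0.682 to 0.837 after DSS and from 0.494 to 0.785 in water. *Cnn1* was close to the limit of the data, at 0.214, 0.137 and 0 TPM in the DSS-treated controls and at 0, 0.621, 0.431 and 0 TPM in the DSS-treated knockout mice, and it spanned 0.183 to 1.14 TPM in water.

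Among the genes that drive or regulate contraction, *Mylk*, myosin light chain kinase, was at 5.36, 3.89 and 3.19 TPM in the DSS-treated controls and at 4.00, 5.69, 5.94 and 2.72 TPM in the DSS-treated knockout mice. It spanned 2.33 to 5.05 TPM in water. Only 30.4% of the stretches of 31 bases in the *Mylk* transcript used were in no other annotated transcript, but 99.99% were in no other gene. Non-muscle cells also make this kinase. *Smtn*, smoothelin, was at 4.68, 2.39 and 10.1 TPM in the DSS-treated controls and at 5.67, 5.05, 6.18 and 1.51 TPM in the DSS-treated knockout mice, and at 4.15 to 7.87 TPM in water. Its highest value was in DSS-treated control 3, a mouse low in *Acta2*. *Lmod1*, leiomodin 1, which starts new actin filaments, stayed between 0.114 and 0.397 TPM after DSS and between 0.218 and 1.01 TPM in water.

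*Des*, desmin, forms the intermediate filaments of muscle. It was at 1.24, 0.195 and 0.750 TPM in the DSS-treated controls and at 0.430, 1.24, 1.33 and 0.225 TPM in the DSS-treated knockout mice, and it spanned 0.614 to 1.60 TPM in water. The 3 mice high in *Acta2* after DSS were the 3 highest here as well.

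By median TPM the order after DSS was *Acta2* (8.92), *Tagln* (7.12), *Smtn* (5.05), *Mylk* (4.00), *Actg2* (2.30), *Des* (0.750), *Lmod1* (0.230) and *Cnn1* (0.137), and the ranges of neighbours overlapped at each step. In water the order was *Acta2* (19.8), *Tagln* (15.3), *Smtn* (5.21), *Actg2* (4.86), *Mylk* (3.598), *Des* (0.962), *Lmod1* (0.666) and *Cnn1* (0.391). There the ranges were apart between *Tagln* and *Smtn* and between *Mylk* and *Des* only. Within a mouse *Acta2* was above *Tagln* in 7 of 7 and 9 of 9 mice, while *Smtn* was above *Mylk* in 3 of 7 DSS-treated mice, and *Lmod1* was above *Cnn1* in 4 of 7 and 5 of 9 mice. These levels rest on few reads. The exponent of the authors' mean log estimated count was 96.4 after DSS and 95.4 in water for *Acta2*, 194 and 78.0 for *Mylk*, 64.4 and 57.5 for *Tagln*, and 80.7 and 49.8 for the main *Smtn* transcript. For *Des* it was 10.9 and 8.61, for *Lmod1* 5.64 and 6.55, and for the more often used *Actg2* transcript 8.39 and 4.85. Values of *Des* and *Lmod1* in single mice therefore rest on few reads. The *Actg2* figures average in mice whose estimate went to its other transcript, so they understate the reads behind the sum. Those reads may be few as well, and no such estimate was listed for *Cnn1*.

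**Figure D1:**
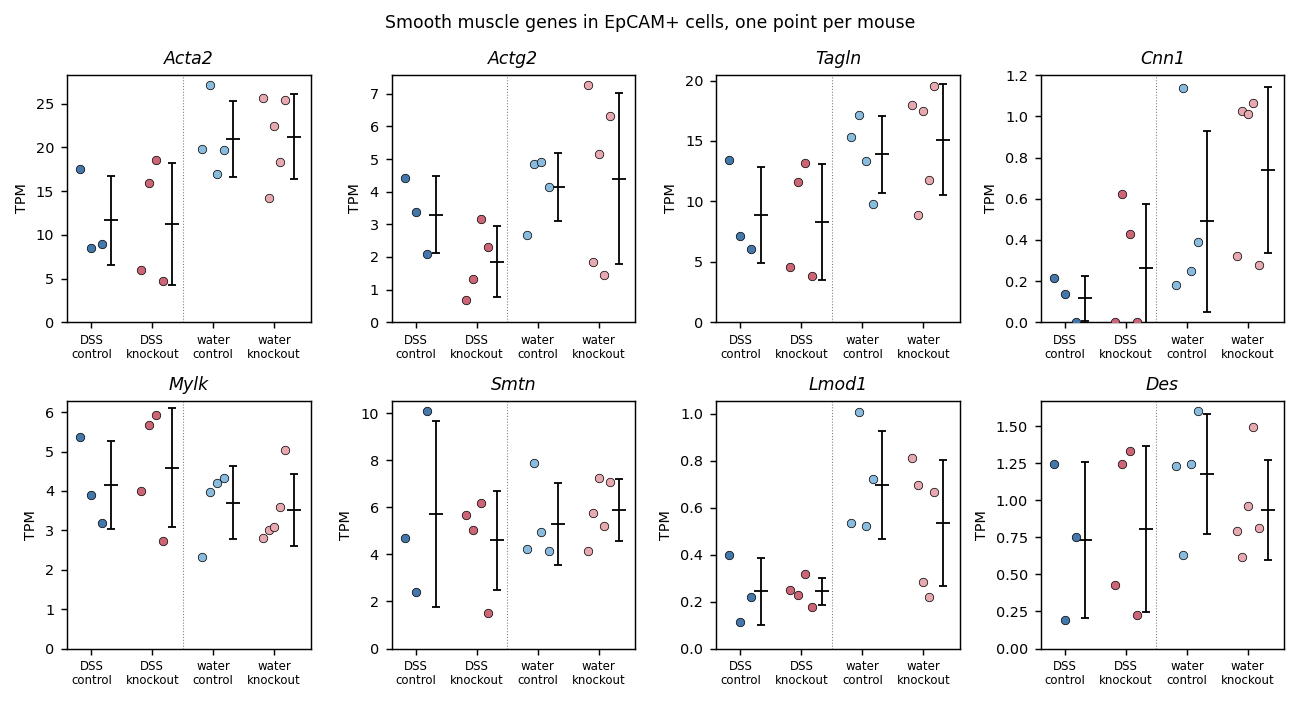
TPM of the 8 smooth muscle genes on the y axis of each panel, with 1 point per mouse for 3 DSS-treated control, 4 DSS-treated knockout, 4 water-treated control and 5 water-treated knockout mice, and the mean with the SD beside the points (the bar of *Cnn1* is cut at 0). *Acta2* and *Tagln* were the highest, the DSS-treated mice spread from 4.68 to 18.5 TPM of *Acta2*, and the genotypes overlapped in each panel; the treatments come from separately scaled tables.

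The first comparison asked whether smooth muscle genes differed with the loss of epithelial TNFR2 after DSS. No difference was found, and the precision was low. Of the 8 genes, 5 passed the filter of a mean TPM of 1 or more (*Acta2*, *Actg2*, *Tagln*, *Mylk* and *Smtn*), and 0 were called by limma at an adjusted p under 0.05, where 0.00918% of the 10899 genes tested were called. At an unadjusted p under 0.05 there were also 0 of the 5, where 2.65% of all genes tested passed. The genotypes overlapped for all 8 genes, and 3.68% of the genes tested did not overlap.

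*Acta2* averaged 11.7 ± 5.11 TPM (SD, n = 3) in controls and 11.3 ± 6.98 TPM (SD, n = 4) in knockout mice. On the log2(TPM + 1) scale the knockout minus control difference was −0.17 (SE 0.49, adjusted p = 1.00 by limma), with a 95% interval from −1.31 to 0.97. *Actg2* showed the largest difference of the 5, with 3.29 ± 1.18 TPM in controls and 1.86 ± 1.09 TPM in knockout mice. Its log2 difference was −0.63 (SE 0.36, 95% interval −1.48 to 0.21, adjusted p = 1.00 by limma), and the exact two-sided permutation p of the TPM was 0.143, where 0.0286 is the smallest that 3 against 4 mice can give. The log2 differences of *Tagln* (−0.18, SE 0.45), *Smtn* (−0.20, SE 0.50) and *Mylk* (0.096, SE 0.27) were smaller than their errors. *Des*, *Lmod1* and *Cnn1* did not pass the filter, and their exact permutation p values were 0.800, 1.00 and 0.457. The intervals reach past a halving for *Acta2*, *Actg2*, *Tagln* and *Smtn* on this scale, so that a decrease of that size lay within them. The sign of the difference turned for *Acta2*, *Tagln*, *Mylk* and *Smtn* when single mice were left out, and for *Actg2* it stayed below 0, from −0.85 to −0.40.

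In the water-treated mice the same question again gave no call, with narrower intervals than after DSS for *Acta2*, *Tagln*, *Mylk* and *Smtn* and a slightly wider one for *Actg2*. Here 6 of the 8 genes passed the filter, with *Des* added, and 0 were called, where 0.00905% of the 11046 genes tested were. Again 0 had an unadjusted p under 0.05, where 5.28% of all genes did. The genotypes overlapped for all 8 genes, where 1.55% of the genes tested did not overlap. *Acta2* averaged 20.9 ± 4.37 TPM (SD, n = 4) in controls and 21.2 ± 4.88 TPM (SD, n = 5) in knockout mice, a log2 difference of 0.0092 (SE 0.20, 95% interval −0.43 to 0.45, adjusted p = 0.995 by limma). *Tagln* averaged 13.9 ± 3.17 and 15.1 ± 4.57 TPM, with a log2 difference of 0.087 (SE 0.25). The other differences were −0.16 for *Des* (SE 0.22), 0.14 for *Smtn* (SE 0.21), −0.069 for *Actg2* (SE 0.39) and −0.058 for *Mylk* (SE 0.20), and the lowest adjusted p of the 6 was 0.905 by limma. *Lmod1* and *Cnn1* were under the filter, with exact permutation p values of 0.349 and 0.421, where the smallest possible is 0.00794.

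**Figure D2:**
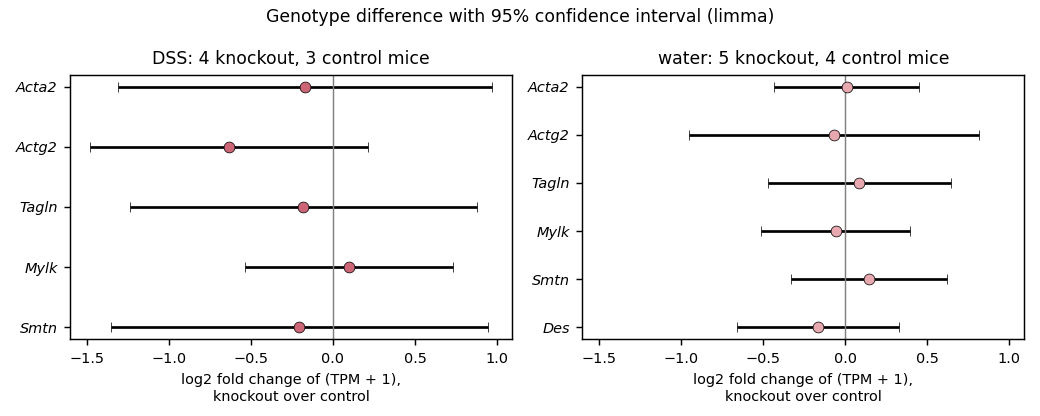
Log2 fold change of TPM + 1, knockout over control, on the x axis for the members that passed the filter, 5 after DSS (left) and 6 in water (right), with 95% confidence intervals from limma. Each interval includes 0, and those after DSS are wider for *Acta2*, *Tagln*, *Mylk* and *Smtn* than those in water.

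The wider contractile genes were listed beside the members, 30 genes of which 11 passed the filter after DSS and 12 in water, and 0 were called in either treatment. After DSS the log2 differences of 2 of the 11 were above 0, with a median of −0.15, and in water those of 5 of the 12, with a median of −0.18, while the medians over all genes tested were 0.015 and 0.0015. The most abundant of the list were *Myl6*, an essential light chain used by muscle and non-muscle cells, at 220 to 755 TPM over the 16 mice, *Csrp1*, a LIM domain protein, at 38.2 to 103 TPM, *Vcl*, vinculin, at 11.5 to 29.6 TPM, and *Fhl1* at 2.42 to 24.9 TPM. By contrast *Palld* was listed at 0 in all 16 mice, *Tpm2* reached at most 0.447 TPM, and *Synpo2* at most 0.486 TPM. Of the regulators, *Srf* was at 19.5 to 44.5 TPM and *Klf4*, which is also a gene of differentiated colonic epithelium, at 139 to 368 TPM, while *Myocd*, the gene of myocardin, reached at most 0.218 TPM. None of the 6 regulators that passed the filter was called in either treatment. Among the fibroblast markers 11 were tested in each treatment and 0 were called, with log2 differences above 0 for 10 of 11 after DSS (median 0.26) and for 0 of 11 in water (median −0.59). *Dcn*, decorin, the highest of them, differed by 0.29 after DSS and by −0.62 in water on this scale. Their part in the members' values was not tested.

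The second question was whether the smooth muscle genes moved together from mouse to mouse. After DSS they did so for a core of the set. Of the 28 pairs of the 8 genes, 27 had a Pearson r above 0 across the 7 mice, with a median of 0.62, and 10 pairs had an exact two-sided permutation p under 0.05 (7 pairs by Spearman's rho). Over all 10901 genes correlated with a member, the share with an exact p under 0.05 ran from 3.48% for *Actg2* to 8.11% for *Cnn1*. The 10 pairs were those among *Acta2*, *Tagln*, *Des*, *Cnn1* and *Mylk* other than *Des* with *Cnn1*, and *Des* with *Lmod1*. In all, 56 pair relations were computed over both treatments, and 0 passed after Benjamini-Hochberg adjustment over all genes correlated with the first gene of a pair. Among the 5 genes that passed the filter, 3 of 10 pairs had an exact p under 0.05, and the median r was 0.43. *Des*, *Cnn1* and *Lmod1* were under the filter, and *Cnn1* was at 0 in 3 of the 7 mice. The pairs with these genes therefore rest on values near the limit of the data.

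The closest pair was *Acta2* with *Tagln* (r = 0.992, exact permutation p = 0.000794, adjusted p = 0.606; rho = 0.929, exact p = 0.00675), and r was 0.985 without control 1 and knockout 3, the 2 mice farthest from the median of *Acta2*. No other gene of 10901 had a higher r with *Acta2*. *Mylk* followed both, with r = 0.905 for *Acta2* (exact p = 0.0103, adjusted p = 0.658; rho = 0.821, exact p = 0.0341; r = 0.829 without the 2 mice) and r = 0.913 for *Tagln* (exact p = 0.00893, adjusted p = 0.620; rho = 0.786, exact p = 0.0480; r = 0.853 without the 2 mice). *Des* had r = 0.908 with *Acta2* (exact p = 0.0175, adjusted p = 0.664; rho = 0.857, exact p = 0.0238; r = 0.824 without the 2 mice). *Actg2* stood apart from this core, with r = 0.43 with *Acta2* (exact p = 0.333, adjusted p = 0.912; rho = 0.393, exact p = 0.396) and r = −0.050 without the 2 mice. *Smtn* had r = 0.44 with *Acta2* (exact p = 0.335, adjusted p = 0.912; rho = 0.464, exact p = 0.302; r = 0.43 without the 2 mice). *Acta2* left a gap between 8.92 and 15.98 TPM, 43.6% of its log2 range, with 4 mice below and 3 above, so that these correlations largely set 3 mice against 4 and cannot be tested within either side. Control 1 and knockout 3 are both on the high side. The r without them therefore sets knockout 2 alone against the 4 low mice, and it is no check on this gap. Without knockout 4 the count of pairs with an exact p under 0.05 fell from 10 to 3, and without knockout 3 to 6. Of the 2 cages, 1 held 2 mice and the other 5, too few for a correlation within a cage. With cage means subtracted, an alternative added after seeing the data, the count was 15. The permutation p is not exact for such values, so this count does not show that the pairs hold within cages.

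In water the pattern was looser. Of the 28 pairs 17 had an r above 0 across the 9 mice, with a median of 0.099, and 3 pairs had an exact p under 0.05, those among *Acta2*, *Tagln* and *Actg2*. Over all 11047 genes the share with an exact p under 0.05 ran from 3.32% for *Cnn1* to 5.87% for *Mylk*. Among the 6 genes that passed the filter, 3 of 15 pairs had an exact p under 0.05, and the median r was 0.19. *Acta2* and *Tagln* were again the closest pair (r = 0.845, exact p = 0.00459, adjusted p = 0.996; rho = 0.817, exact p = 0.0108; r = 0.753 without control 2 and knockout 2), and this was the 1 pair with an exact p under 0.05 in both treatments. *Actg2* had r = 0.727 with *Acta2* (exact p = 0.0284, adjusted p = 0.996; rho = 0.633, exact p = 0.0760; r = 0.662 without those 2 mice) and r = 0.702 with *Tagln* (exact p = 0.0370, adjusted p = 0.987; rho = 0.833, exact p = 0.00827; r = 0.806 without control 4 and knockout 2). *Des*, which followed *Acta2* after DSS, had r = −0.29 with it in water (exact p = 0.440, adjusted p = 0.996; rho = −0.33, exact p = 0.385; r = −0.84 without the 2 mice), and *Mylk* had r = 0.19 (exact p = 0.620, adjusted p = 0.996; rho = 0.017, exact p = 0.982; r = −0.040 without the 2 mice). The 4 males and 5 females were in separate cages, each too few for a correlation of its own. With cage means subtracted 4 pairs had a permutation p under 0.05, which is not exact for such values. Whether the correlations differ between the treatments was not tested, and the range of *Acta2* was narrower in water, 1.91-fold from lowest to highest against 3.95-fold after DSS.

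**Figure D3:**
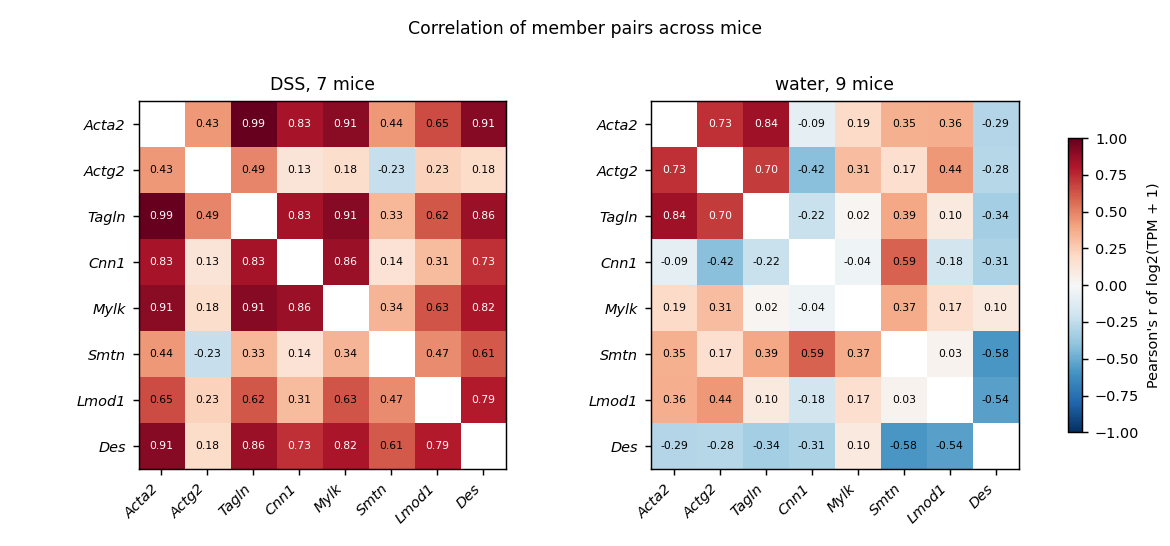
Pearson's r of log2(TPM + 1) for the 28 pairs of members, by colour and as printed numbers, across 7 DSS-treated mice (left) and 9 water-treated mice (right), with blue below 0 and red above 0. After DSS *Acta2*, *Tagln*, *Cnn1*, *Mylk* and *Des* form a block of high values, of which *Cnn1* and *Des* averaged under 1 TPM. The median over all 28 pairs, those outside the block included, is 0.62. In water *Acta2*, *Tagln* and *Actg2* are the high pairs.

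Genes of other stromal cells moved with *Acta2* after DSS. The summed fibroblast markers stood at 482, 131 and 229 TPM in the DSS-treated controls and at 136, 552, 653 and 140 TPM in the DSS-treated knockout mice, so that control 1 and knockout 2 and 3 were again the 3 highest, and the same 3 were highest in the summed pericyte and endothelial markers. All 11 fibroblast markers that averaged 1 TPM or more had an r above 0 with *Acta2*, 10 of them with an exact permutation p under 0.05, with a median of 0.92 and a median of 0.88 without the 2 farthest mice. Those 2 were control 1 and knockout 3, so that knockout 2 was the only high mouse left in each r without them. Over all genes 7.05% had an exact p under 0.05 with *Acta2* after DSS, and 0 passed the adjustment. *Col3a1*, a fibrillar collagen, had r = 0.9504 (exact p = 0.00476, adjusted p = 0.635; rho = 0.857, exact p = 0.0238; r = 0.912 without the 2 mice) and *Dcn* r = 0.917 (exact p = 0.0125, adjusted p = 0.658; rho = 0.857, exact p = 0.0238; r = 0.827 without the 2 mice). Of the 6 endothelial markers with such a mean, 3 had an exact p under 0.05. *Rgs5*, the most abundant pericyte marker, had r = 0.802 (exact p = 0.0534, adjusted p = 0.712; rho = 0.643, exact p = 0.139; r = 0.562 without the 2 mice). *Foxf1*, a transcription factor of gut mesenchyme, had r = 0.909 (exact p = 0.00615, adjusted p = 0.645; rho = 0.964, exact p = 0.00278; r = 0.865 without the 2 mice). It was picked from the regulators after its value was seen, and only 2 of those 6 had an r above 0, with a median of −0.15. The epithelial markers did not rise with *Acta2*, as 2 of 10 had an r above 0, with a median of −0.25. *Epcam* had r = −0.28 (exact p = 0.502, adjusted p = 0.966, rho = −0.036, exact p = 0.963, r = 0.115 without the 2 mice). *Cdh1* was the 1 marker of the 10 with an exact p under 0.05, with r = −0.73 (exact p = 0.0490, adjusted p = 0.706, rho = −0.71, exact p = 0.0881, r = −0.70 without the 2 mice). The part of other stromal cells in the correlations of the members was not tested.

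In water the fibroblast markers did not follow *Acta2* in this way. Their sums were 579, 971, 913 and 676 TPM for controls, and those of knockout mice were 521, 286, 585, 843 and 440 TPM. Of the 11 markers tested 10 had an r above 0 with *Acta2*, with a median of 0.18, and 0 had an exact p under 0.05, where 4.30% of all genes did. Knockout 2 was lowest and control 2 highest in both *Acta2* and the fibroblast sum. Without these 2 mice the r of the 11 markers lay between −0.94 and −0.60. *Srf*, the regulator named above, had r = 0.817 with *Acta2* in water (exact p = 0.00621, adjusted p = 0.996; rho = 0.783, exact p = 0.0172; r = 0.638 without the 2 mice) and r = −0.28 after DSS (exact p = 0.527, adjusted p = 0.972; rho = −0.21, exact p = 0.662; r = −0.26 without the 2 mice). In water all 6 regulators tested had an r above 0 with *Acta2*, with a median of 0.32, and *Srf* was the 1 with an exact p under 0.05.

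**Figure D4:**
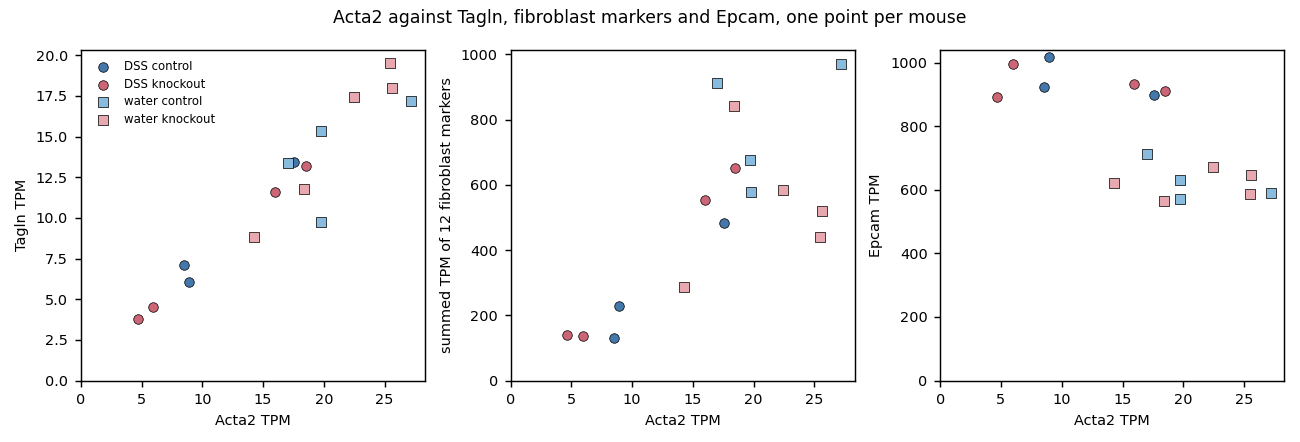
TPM of *Acta2* on the x axis against TPM of *Tagln* (left), the summed TPM of 12 fibroblast markers (middle) and TPM of *Epcam* (right), with 1 point per mouse, circles for 7 DSS-treated and squares for 9 water-treated mice. *Tagln* rises with *Acta2* in both treatments (r = 0.992 and 0.845 on the log2 scale), the fibroblast sum runs from 131 to 653 TPM along *Acta2* after DSS, and the 2 tables were scaled separately.

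The treatments were set side by side without a test, because their tables were scaled separately and no cage held both. In the deposited values 7 of the 8 genes had a lower mean after DSS than in water, with a median log2 ratio of mean TPM of −0.78 over the 8. The shift of all genes was taken on another measure, the difference of mean log2(TPM + 1), with a median over 11247 genes of 0.32 higher after DSS. That measure understates the change of low genes, so the 2 values cannot be compared in size. The share of all genes with a lower mean after DSS was not computed. *Acta2* averaged 11.4 ± 5.75 TPM (SD, n = 7) after DSS and 21.1 ± 4.37 TPM (SD, n = 9) in water, and 4 of the 7 DSS-treated mice were below the lowest water-treated mouse. *Tagln* averaged 8.54 ± 4.11 and 14.6 ± 3.82 TPM, *Actg2* 2.47 ± 1.28 and 4.28 ± 1.97 TPM, and *Lmod1* 0.244 ± 0.0924 and 0.607 ± 0.250 TPM. *Mylk* was the exception, with 4.40 ± 1.27 and 3.598 ± 0.865 TPM, and *Smtn* averaged 5.08 ± 2.79 and 5.63 ± 1.45 TPM. With 1 set of scaling factors for all 16 mice the ratio of *Mylk* turned from 0.29 to −0.069 on the log2 scale, and that of *Acta2* moved from −0.88 to −1.24. The shift of all genes was then 0.01, as such factors remove most of it by construction. With genotypes pooled, the 8 genes overlapped between the treatments on both scales, *Acta2* after rescaling only by 15.68 TPM in the highest DSS-treated against 15.63 TPM in the lowest water-treated mouse. Among controls alone, 3 DSS-treated against 4 water-treated mice, *Lmod1* did not overlap on either scale, nor did *Acta2* and *Cnn1* after rescaling. Among knockout mice all 8 overlapped. The share of all genes without such an overlap was not computed, so these counts are not a result about the members. As a share of the mean, the SD of *Acta2* was 50.3% after DSS and 20.7% in water, and that of *Tagln* 48.2% and 26.2%. It was also larger after DSS for *Smtn* (55.0% and 25.7%), *Des* (64.7% and 35.0%) and *Cnn1* (121% and 65.7%). The difference was small for *Mylk* (28.8% and 24.0%) and *Actg2* (51.8% and 46.0%), and *Lmod1* went the other way (38.0% and 41.2%). This spread was not computed over all genes. The fibroblast and leukocyte sums and *Epcam* differed between the tables as well, as given above, and their part was not tested.

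The genes most like the mean of the 8 members were found by the lower of their 2 r values, over 7 DSS-treated and 9 water-treated mice, among 10141 genes outside the set that averaged 1 TPM or more in both tables. *Pdlim3*, a LIM protein of the muscle Z line, came first, with r = 0.95 after DSS and 0.90 in water, at 0.382 to 2.82 and 1.54 to 5.00 TPM. *Myl9* was next, with 0.94 and 0.81, at 2.35 to 10.7 and 4.78 to 20.7 TPM. Others among the 10 most alike were *Fgf7*, a growth factor made by mesenchyme (0.78 and 0.96), *Adgrl4*, an endothelial receptor (0.84 and 0.77), *Tceal8*, *Nedd9*, *Apold1*, *Fabp4* and *Ociad2*, the last with a lower r of 0.71. For comparison, among the members themselves the lower r was 0.88 for *Acta2*, 0.76 for *Tagln*, 0.53 for *Smtn*, 0.50 for *Mylk* and 0.42 for *Actg2*, each of which is part of that mean. The median r of the 10141 genes was −0.038 after DSS and 0.012 in water. These values are a ranking over few mice and carry no test.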

How the data were processed

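EpCAM+ colon cells of 16 mice were sorted and sequenced as 1 library per mouse. Per the labels and methods, stranded libraries were read once over 75 bases, and abundance came from kallisto and genotype tests from sleuth. The authors deposited 1 table per treatment, with TPM per APPRIS principal transcript, scaled by sleuth between the mice of a table but not between tables. The deposited tables also hold a natural log of estimated counts, averaged by the authors over the mice of a table, used here as the authors' pooled value for depth. The fold changes, p-values and q-values of the authors' own comparison were not used. Each held 29373 lines, of which 385 repeated another and were dropped, leaving 28988 transcripts.

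TPM was summed per gene symbol. Genotypes were compared within a treatment by a two-sided limma fit (version 3.58.1, R version 4.3.3) of log2(TPM + 1), a scale that understates the change of low genes. The fit used the variance trend and the genes averaging 1 TPM or more, with Benjamini-Hochberg adjustment over the genes tested, and genes at an adjusted p under 0.05 were called. Single members were also compared by an exact permutation of the mice. Pairs were compared by Pearson's r and Spearman's rho of log2(TPM + 1) with exact permutation over the pairings of the mice, and r was repeated without the 2 mice farthest from the median of the first gene. Both procedures were tested on simulated data. Alternatives were a pseudocount of 0.1, no filter or a filter at a mean of 5 TPM, median-of-ratios rescaling, quantile normalization, array weights, cage as a covariate, the replicate number as a block, all 4 groups in one fit, genotype or cage means subtracted from the correlations, and leaving out each mouse.

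The members and the gene lists were chosen with earlier results of these data known. Named are the members, *Tnfrsf1b*, up to 4 genes of each list by mean TPM, and the 10 genes most like the members, of which 1 is not reported here; *Foxf1*, the promoter of *Myl9* and the list genes at or near 0 were named after their values were seen. Replicates are separate mice, and p-values measure the spread between these mice. Library depth cannot be read from TPM, and the few mice per group set the precision. Reads shared between near-identical actins were divided by kallisto, and 98.5% of the 31-base windows of the *Acta2* transcript were in no other gene. Other steps ran in Python 3.11.15 (pandas 2.3.3, numpy 2.4.6; figures by matplotlib 3.10.9).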

Additional observations from a re-analysis of the deposited data

How the results depend on the processing

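The count of 0 members called by genotype held in each treatment under each alternative run, the replicate block included (0 members, after DSS and in water), and the lowest adjusted p of a member was 0.839 after DSS and 0.804 in water. The replicate numbers do not pair the mice: deviations of same-numbered mice correlated at −0.20 to −0.025 after DSS and at −0.077 to 0.093 in water, and with the block the log2 differences turned to 0.13 for *Acta2*, 0.083 for *Tagln* and 0.15 for *Smtn* after DSS and to −0.061 for *Acta2* and −0.014 for *Tagln* in water. Array weights turned *Mylk* to −0.036 and *Smtn* to 0.024 after DSS, and *Actg2* to 0.079 and *Mylk* to 0.030 in water; quantile normalization and cage turned *Acta2* in water to −0.032 and −0.016. Leaving out each mouse gave, after DSS, −0.46 to 0.14 for *Acta2*, −0.44 to 0.13 for *Tagln*, −0.042 to 0.28 for *Mylk* and −0.61 to 0.24 for *Smtn*, and in water −0.079 to 0.14 for *Acta2*, −0.061 to 0.25 for *Tagln*, −0.26 to 0.17 for *Actg2* and −0.22 to 0.010 for *Mylk*. The block sets aside the mouse with no same-numbered partner, knockout 4 after DSS and knockout 5 in water. The log2 differences with the block are therefore those without that mouse. The cause of the other turns was not tested. The count of correlated pairs after DSS ran from 3 to 9 without single mice and from 7 to 15 under the other settings, against 10, and in water from 2 to 4, against 3. Where genotype or cage means were subtracted, the permutation p is not exact. One rescaling of all 16 mice turned the log2 ratio of *Mylk* to −0.069 and left 8 of 8 members lower after DSS. With 7 and 9 mice, and a few reads for *Des*, *Lmod1* and perhaps *Actg2*, a halving of *Acta2*, *Actg2*, *Tagln* or *Smtn* after DSS lay within the intervals.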
